A study of Homo sapiens with 2 samples.

Results

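Transcripts of the NF-kB subunits and of their feedback inhibitors were examined in 2 human melanoma cell lines. NF-kB is a family of transcription factors built from the subunits NFKB1, NFKB2, REL, RELA and RELB, and the other members examined were NFKBIA, NFKBIE, NFKBIZ, TNFAIP3 and BIRC3. The 10 genes were looked up by symbol in the annotation of the array platform, and 19 probe sets carried the symbol of 9 of them alone, out of 54675 probe sets and 19775 genes in all. No named probe set was found for BIRC3, so its transcript was not analysed here. The lines were IGR39, grown from an achromic primary tumour of the skin, and IGR37, grown from a metastasis in a lymph node. Both were cultured in the same serum-containing medium with no treatment named, and each was measured on 1 array, so each line stands for 1 culture and no difference below has a replicate check or a test.

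In resting cells, inhibitors of the IkB type such as NFKBIA hold NF-kB dimers in the cytoplasm. Signals from receptors for TNF, interleukin 1 and microbial products activate the IKK kinases, which mark the inhibitor for destruction, and the freed dimers enter the nucleus. Among the genes that NF-kB then switches on are its own inhibitors, NFKBIA and the ubiquitin-editing enzyme TNFAIP3 (also called A20), and together they end the response. In melanoma cells the pathway is known for driving chemokines and survival genes.

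Levels are given as the authors' RMA values on the log2 scale, and a difference is the level in IGR37 minus that in IGR39, so that 1 is a 2-fold difference. A gene was represented by its brightest probe set, and counts used genes that reached log2 6 in the brighter line, 8501 in all. The median level was 4.17 in IGR39 and 4.14 in IGR37, and 23.9% and 24.3% of probe sets reached log2 6. Hybridisation spike-ins differed by -0.14 to 0.21 and poly-A spike-ins by -0.47 to 0.68, while probe sets of the same gene scattered with a pooled SD of 0.40. Those values describe arrays and probes, not the spread between cultures. Of 8 measured melanocyte markers, all were higher in IGR37 by at least 2-fold, and 7 were under log2 6 in IGR39; PMEL was at 4.29 there against 12.47 in IGR37, and MITF, the exception, at 7.57 against 11.81. Of 19 lymphocyte and macrophage markers, 18 stayed under log2 6 in both lines and the other, CD22, stood at 6.22 and 6.26; the pan-leukocyte gene PTPRC was at 3.31 and 3.41, and the summed level of the list was 79.3 in IGR39 and 78.7 in IGR37. Of 14 fibroblast and endothelial markers, 4 reached log2 6 in at least 1 line, without a shared direction. POSTN stood at 7.53 and 3.14 and FAP at 8.85 and 6.83, against LUM at 3.41 and 6.26. COL1A1 stood at 5.87 and 6.15, a difference of 0.27, while the mean difference over its 5 probe sets was -0.71. At least 1 line reached log2 6 for 2 of 7 keratinocyte markers, KRT10 at 9.13 in IGR39 and 9.08 in IGR37 and DSP at 5.90 and 6.07.

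The 3 subunit transcripts that reached log2 6, NFKB1, REL and RELA, lay within 2-fold between the lines, whereas the feedback inhibitors TNFAIP3 and NFKBIA went in opposite directions. On the brighter probe set of each, TNFAIP3 was 14.2-fold higher in IGR37 and NFKBIA 3.28-fold higher in IGR39. RNA came from whole cultures, so that more expressing cells and more RNA per cell cannot be told apart. Of the 6 members that reached log2 6, 1 was at least 2-fold higher in IGR37, against 11.4% of all genes tested, and 1 was at least 2-fold lower, against 9.50%. NFKB2, RELB and NFKBIE stayed under log2 6 in both lines. The median difference of the 6 was 0.41, beside 0.07 over all genes tested. Past 2-fold, 973 of all genes tested lay on the higher side and 808 on the lower, a split that became 733 and 1055 when the arrays were centred on housekeeping genes, which subtracts 0.19 from each difference.

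**Figure D1:**
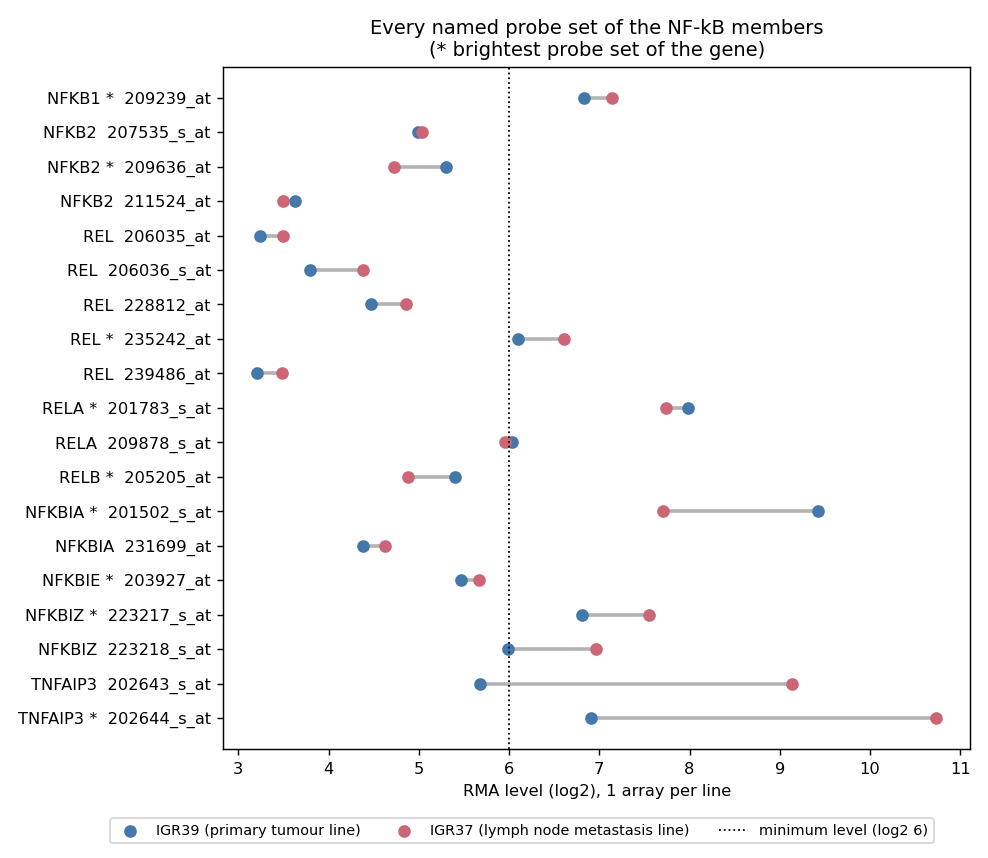
Levels of all 19 member probe sets on a log2 axis, with 1 row per probe set, 1 point per line and the brightest probe set of each gene starred. The points of each subunit probe set lie at most 0.59 apart, while both probe sets of TNFAIP3 lie far to the right in IGR37 and the brighter probe set of NFKBIA lies to the right in IGR39.

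Among the subunits, RELA and NFKB1 encode the partners of the classical heterodimer. RELA, whose protein carries a transactivation domain, stood at 7.98 in IGR39 and 7.73 in IGR37, and its second probe set was at 6.04 and 5.95. Both probe sets were therefore marginally lower in IGR37, by 0.25 and 0.09, less than the scatter between probe sets of a gene. NFKB1, which encodes the p105 precursor of the DNA-binding p50 protein, had 1 probe set, at 6.83 in IGR39 and 7.14 in IGR37, which differed by 0.31. The median absolute difference of all genes tested was 0.45, so RELA and NFKB1 differed by less than the typical gene.

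REL encodes c-Rel, a subunit best known from lymphocytes. Its brightest probe set stood at 6.10 in IGR39 and 6.61 in IGR37. All 5 REL probe sets were higher in IGR37, by 0.26 to 0.59, but 4 of them lay under log2 6 in both lines, a range in which differences are compressed. Of the genes tested, 26.0% had a difference at least as high as that of REL.

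The alternative branch of the pathway uses RELB with p52, the product of the NFKB2 gene. RELB was at 5.40 in IGR39 and 4.88 in IGR37 on its only probe set. The NFKB2 probe sets were at 5.30 and 4.73, at 4.99 and 5.03, and at 3.62 and 3.50, and so had no shared direction. Both genes stayed under log2 6, where RMA compresses differences.

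TNFAIP3 had the largest difference of all members measured. Its brighter probe set stood at 6.90 in IGR39 and 10.73 in IGR37, and the other at 5.68 and 9.13. The differences of 3.83 and 3.45 correspond to 14.2-fold and 11.0-fold higher levels in IGR37. Both exceeded the scatter between probe sets of a gene, and TNFAIP3 ranked 77 from the top among the 8501 genes, with 0.906% of genes at or above its difference. Across the processing alternatives that kept a probe set of the gene, its difference stayed between 3.64 and 3.83.

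NFKBIA, which encodes IkB-alpha, went the other way. The brighter probe set stood at 9.42 in IGR39 and at 7.71 in IGR37, and the difference was -1.71. Of the genes tested, 5.02% had a difference at or below that of NFKBIA. The second probe set was near background, at 4.39 and 4.63, with a difference of 0.24 in the opposite direction. The call therefore rests on 1 probe set: the mean over both gave -0.74, within 2-fold, and without the probe sets whose names end in _s_at or _x_at only the dim one was left, which turned the direction.

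NFKBIZ encodes IkB-zeta, a nuclear member of the IkB family that acts as a coactivator of secondary response genes. Its brighter probe set stood at 6.80 in IGR39 and 7.55 in IGR37, and the other at 5.99 and 6.96. The differences of 0.75 and 0.97 pointed the same way and both stayed within 2-fold. NFKBIE, which encodes IkB-epsilon, stood at 5.47 and 5.66 on its only probe set, both under log2 6.

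**Figure D2:**
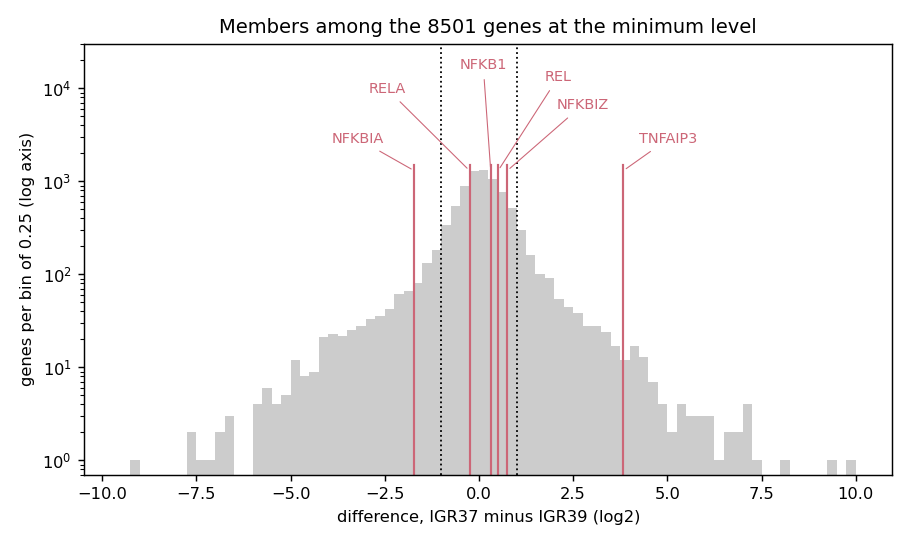
Histogram of the differences (IGR37 minus IGR39, log2) of all 8501 genes at the minimum level, with a log count axis, dotted lines at 2-fold and red lines at the 6 members that reached that level. RELA, NFKB1, REL and NFKBIZ lie between the dotted lines, NFKBIA lies left of them at -1.71 and TNFAIP3 right of them at 3.83.

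The promoters of TNFAIP3 and NFKBIA are shown because the transcripts of these feedback genes differed in opposite directions although each promoter holds a match to the consensus that NF-kB is known to bind. The 250 bases before the transcription start were taken from RefSeq (GRCh38.p14) and searched on both strands for the kappaB consensus, a 10-base motif of 3 G, a purine, any base, A or T, 2 pyrimidines and 2 C. Matches are in capitals. The TNFAIP3 window is chr6:137867009-137867258 on the plus strand, and that of NFKBIA is chr14:35404750-35404999 on the minus strand, each printed in the direction of the gene.
TNFAIP3: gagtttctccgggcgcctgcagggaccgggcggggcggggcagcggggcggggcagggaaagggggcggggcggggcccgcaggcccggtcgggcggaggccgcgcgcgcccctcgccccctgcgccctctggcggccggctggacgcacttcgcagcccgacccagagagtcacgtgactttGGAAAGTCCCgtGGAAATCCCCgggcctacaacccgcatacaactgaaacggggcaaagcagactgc
NFKBIA: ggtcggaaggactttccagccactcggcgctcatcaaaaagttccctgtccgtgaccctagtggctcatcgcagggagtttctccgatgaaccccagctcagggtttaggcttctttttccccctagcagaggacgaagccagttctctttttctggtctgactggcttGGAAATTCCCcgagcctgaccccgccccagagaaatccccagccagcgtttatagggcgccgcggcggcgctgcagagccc
TNFAIP3 had 2 matches, separated by a pair of bases, between 67 and 46 bases before the start. NFKBIA had 1 match, between 81 and 72 bases before the start. A match describes the letters only, and binding was not measured.

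Matches were also present in the windows of most other members that the promoter table holds, and they are shown because NF-kB genes are known to be regulated by NF-kB itself. Of 8 members with a window, 7 had a match in at least 1 window (9 of 13 windows), whereas 5.21% of all 35116 windows and 6.28% of 27305 genes had one. The stretches below are a selection, for subunits and inhibitors in turn, with the match in capitals and 5 bases on each side. NFKB2, NFKBIZ and BIRC3 had further matches that are not printed. Where a gene has several windows, each start site has its own.
NFKB1, chr4:102501305-102501324: tcagtGGGAATTTCCagcca
NFKB2, chr10:102394466-102394486: gtcatGGGAATTCCCCcctcc
NFKB2, chr10:102395679-102395698: ttttcGGGACTTTCCtaagc
REL, chr2:60881522-60881542: gccgcGGGAAATTCCCctccc
NFKBIZ, chr3:101827762-101827781: ggtctGGGAATTTCCagtgt
BIRC3, chr11:102317280-102317299: gtcatGGAAATCCCCgagtg
The NFKB2 and REL stretches of 11 capitals hold 2 overlapping matches. RELA had 0 matches in its 2 windows, and RELB and NFKBIE were not in the table. Of the members that reached log2 6, those with a match differed by 3.83 (TNFAIP3), 0.75 (NFKBIZ), 0.51 (REL), 0.31 (NFKB1) and -1.71 (NFKBIA). RELA, the only member with a window and no match, differed by -0.25. Whether matches bear on the differences was not tested.

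Inhibitors outside the member list differed less than TNFAIP3 and NFKBIA. Of 15 genes in a list of other IkB proteins and negative regulators, 10 reached log2 6. Of these, 0 were at least 2-fold higher or lower, against 11.4% and 9.50% of all genes tested. Their median difference was -0.14, beside 0.07 over all genes. TNIP1, a partner through which A20 acts on ubiquitin chains, stood at 7.56 in IGR39 and 6.71 in IGR37. CYLD, a deubiquitinase that restrains NF-kB, was at 6.30 and 5.77, and NFKBIB, which encodes IkB-beta, at 7.27 and 7.43. TAX1BP1, another A20 adaptor, was at 10.43 and 10.28. Of the other A20 partners in the list, TNIP2 differed by -0.16, RNF11 by -0.24, ITCH by 0.07 and TNIP3, which was under log2 6, by 0.09. Apart from TNIP1, these partners differed by less than the scatter between probe sets of a gene.

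The kinases that free NF-kB differed little. CHUK (IKK-alpha) stood at 6.73 in IGR39 and 6.41 in IGR37, IKBKB (IKK-beta) at 7.20 and 6.81, and the scaffold IKBKG (NEMO) at 7.39 and 7.42. In the list of 31 kinases and adaptors, 22 reached log2 6. Of these, 3 were lower in IGR37 by at least 2-fold (against 9.50% of all genes tested), 0 were higher by as much (against 11.4%) and 19 differed by less. CARD10, a scaffold of the same list, was not among the 22 because its brightest probe set stayed under log2 6, at 5.97 and 5.88, but another of its probe sets reached that level and differed by -4.56. The list median was -0.28, and 15 of the 22 differences were below 0, compared with 45.4% of all genes.

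The 3 lower genes were MAP3K14, BIRC2 and IRAK1. MAP3K14, the NF-kB-inducing kinase of the alternative branch, stood at 6.04 in IGR39 and 3.70 in IGR37, so it barely reached the minimum in the line where it was brighter. BIRC2, a ubiquitin ligase that keeps this kinase low and the close relative of BIRC3, was at 8.90 and 7.62. IRAK1, a kinase below interleukin 1 and Toll-like receptors, was at 11.04 and 9.86, with differences of -1.18 and -0.46 on its 2 probe sets. TRAF3, which bridges BIRC2 and MAP3K14, was at 6.13 and 5.88, and MYD88, the adaptor above IRAK1, at 8.63 and 7.95. TRAF2 had no named probe set.

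Among 21 receptors that signal to NF-kB, 6 reached log2 6. Of these, 2 were lower in IGR37 by at least 2-fold (against 9.50% of all genes tested) and 1 higher (against 11.4%). Their median was -0.45, and it lay between -1.67 and 0.03 under the other settings. With no minimum 4 were lower, and only 1 when probe sets named _s_at or _x_at were dropped. TNFRSF21, a death receptor, stood at 8.73 in IGR39 and 5.42 in IGR37, and TNFRSF12A, the receptor of the cytokine TWEAK, at 10.08 and 7.63. IL1RAP, the accessory chain of the interleukin 1 receptor, was at 5.85 and 6.85, a difference of 1.01, while its other probe set differed by 1.94. Centring the arrays in any of the ways tried brought the brighter probe set within 2-fold. TNFRSF1A, the main TNF receptor, was at 8.60 and 7.70, and IL1R1 was under log2 6 in both lines, at 4.73 and 3.31.

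None of the 13 measured genes in a list of ligands upstream of NF-kB reached log2 6 in either line, and the highest value was 5.37, for LTB. The list includes IL1RN, a receptor antagonist. TNF itself stood at 3.90 in IGR39 and 3.98 in IGR37, and IL1B at 5.30 and 4.70. A level under the minimum does not show that a ligand was absent.

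Target genes of NF-kB were divided. Of 36 listed, 22 reached log2 6. Of these, 11 were lower in IGR37 by at least 2-fold (against 9.50% of all genes tested), 5 higher (against 11.4%) and 6 within 2-fold. Among the 6, GADD45B differed by -0.95 and TNFAIP6 by -0.24. Another probe set of each reached log2 6 and differed by -1.67 and -1.27, past 2-fold. The list median was -1.10, against -0.17 with no minimum level. Dropping probe sets named _s_at or _x_at gave a median of -0.45 and 6 lower targets. NFKBIA lay with the targets that were lower in IGR37, and TNFAIP3 with the fewer that were higher.

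On the lower side, CXCL8, a neutrophil-attracting chemokine, stood at 8.18 in IGR39 and 6.27 in IGR37, and the monocyte attractant CCL2 at 7.29 and 3.71. IL6 was at 8.70 and 3.69, CCL5 at 9.15 and 4.47 and IL7R at 10.46 and 4.80. IRF1, a transcription factor that is also induced by interferon, was at 8.36 and 5.03, and LIF, a cytokine of the IL6 family, at 7.71 and 4.51. In all of these but CXCL8 the level in IGR37 was under log2 6. The other lower targets, named to complete the 11, were the anti-apoptotic gene BCL2L1 with a difference of -1.77, the receptor chain IL15RA with -1.38, IER3 with -1.27 and TNFAIP2 with -1.25. Another BCL2L1 probe set that reached log2 6 differed by -0.28, within 2-fold.

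On the higher side, CD83, an activation marker of dendritic cells and lymphocytes, stood at 5.72 in IGR39 and 9.13 in IGR37. The mitochondrial dismutase SOD2 was at 6.11 and 7.36, the chemokine CCL20 at 4.51 and 7.01 and MYC at 9.02 and 10.32. BCL2A1, an anti-apoptotic gene, was at 3.11 and 9.97; it is also a known target of MITF in melanocytes, and MITF itself was higher in IGR37. The other measured melanocyte markers and TNFAIP3 were higher in IGR37 as well. In a comparison of only these lines, all genes higher in IGR37 share that direction, so it cannot show a link between any of them. The part of MITF and the other melanocyte markers in the differences was not tested. Among targets that differed little, CXCL1 stood at 6.03 and 6.00, and ICAM1, an adhesion molecule, at 5.79 and 5.47, with the levels of ICAM1 under log2 6 in both lines.

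**Figure D3:**
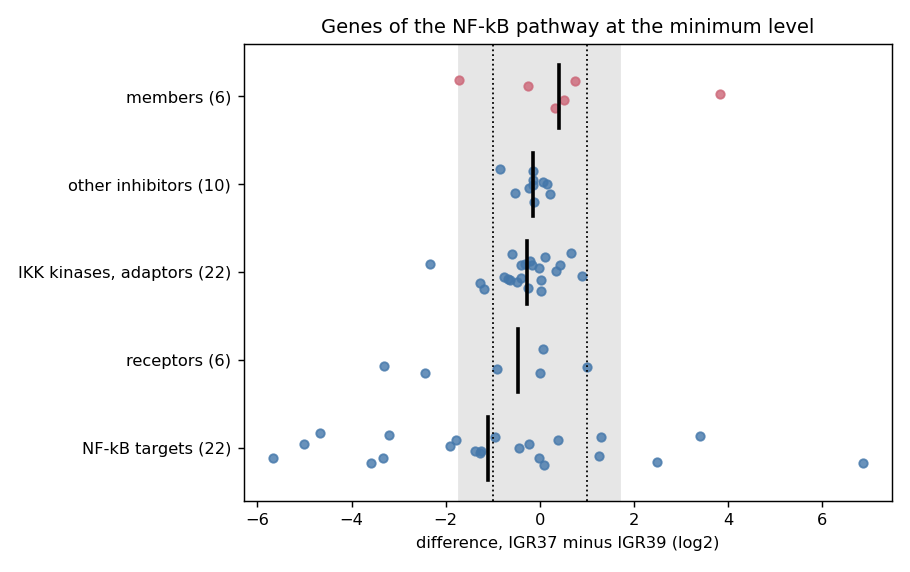
Differences (IGR37 minus IGR39, log2) of genes that reached log2 6, in the members and in 4 pathway lists, with 1 point per gene, a black bar at each median, dotted lines at 2-fold and grey over the central 90% of all genes (-1.72 to 1.70). The other inhibitors all lie within 2-fold, the kinases and adaptors run from -2.34 to 0.89, and the targets spread from -5.66 to 6.86 with a median of -1.10.

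The genes beside each member were examined because neighbours share a chromosome segment. For each member that reached log2 6, the 5 nearest genes at that level on either side were taken in chromosome order from a RefSeq gene table. Around TNFAIP3 on chromosome 6, all 10 neighbours had a difference above 0, while 45.4% of all genes tested had one below 0. Of the 10, 5 were higher in IGR37 by at least 2-fold, against 11.4% of all genes tested. The median of the 10 was 0.92. PEX7, at 5.07 in IGR39 and 6.18 in IGR37, and CCDC28A, at 5.95 and 6.70, reached log2 6 in IGR37 only. The minimum level therefore fixed the sign of their differences. IFNGR1, a subunit of the interferon gamma receptor, stood at 6.92 in IGR39 and 8.58 in IGR37, and NHSL1 at 6.51 and 9.05. PERP stood at 9.61 and 9.64 and BCLAF1 at 9.52 and 9.54, each differing by less than the scatter between probe sets of a gene. The difference of TNFAIP3 exceeded that of every neighbour, the highest of which was 2.54.

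Chromosome 6 as a whole was also shifted. Of its 412 genes at the minimum level, 22.6% were higher in IGR37 by at least 2-fold and 7.52% lower, with a median difference of 0.50, the fourth-highest of the 22 autosomes. The part of this chromosome-wide shift in the level of TNFAIP3 was not tested.

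Around NFKBIA on chromosome 14, 8 of 10 neighbours had a difference below 0, against 45.4% of all genes tested. Of the 10, 1 was lower in IGR37 by at least 2-fold, against 9.50% of all genes tested, and the median was -0.16. SNX6 was that gene, at 8.77 and 7.75. BAZ1A, at 6.38 in IGR39 and 5.89 in IGR37, reached log2 6 in IGR39 only, which fixed the sign of its difference. Of the 252 genes on chromosome 14, 11.1% were at least 2-fold lower and the median was -0.19. Among 10 neighbours each, the counts at least 2-fold higher and lower were 2 and 2 for NFKB1, 3 and 0 for REL, 1 and 1 for RELA, and 0 and 1 for NFKBIZ. Over all genes tested the shares were 11.4% and 9.50%. The median differences were 0.43 for the neighbours of NFKB1, 0.38 for REL, 0.04 for RELA and 0.15 for NFKBIZ.

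**Figure D4:**
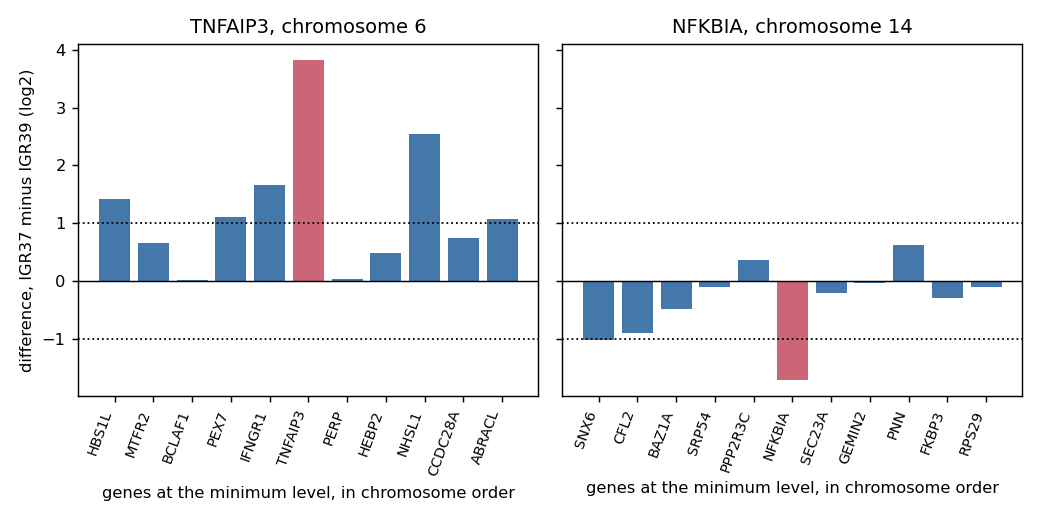
Differences (IGR37 minus IGR39, log2) of TNFAIP3 and NFKBIA (red bars) and of the 5 genes on each side that reached log2 6 (blue bars), in chromosome order, with dotted lines at 2-fold. All 10 neighbours of TNFAIP3 are above 0, and 9 of the 10 neighbours of NFKBIA lie within 2-fold. PEX7 and CCDC28A reached log2 6 in IGR37 only, and BAZ1A in IGR39 only.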

How the data were processed

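Biotin-labelled cRNA from total RNA was measured on Affymetrix U133 Plus 2.0 arrays, 1 per line. The deposited log2 values per probe set came from RMA, run by the authors with affy per the submitters' processing notes; the versions, and the arrays that were normalised together, are not stated there. RMA makes array distributions alike, which removes any overall difference in brightness. Names came from the platform annotation, and 41037 of 41091 probe sets with 1 symbol were matched by gene identifier to RefSeq, which updated symbols. Probe sets with several symbols (1801), controls (62) and those not listed (11721) stood for no gene. The brightest probe set by mean of both arrays stood for a gene. Named genes were all members, the pathway genes past 2-fold with the largest differences (at most 6 in each direction) and a set of key pathway genes. Further genes were named after their values were seen. These were TNIP2, TNIP3, ITCH, RNF11, TAX1BP1, MYD88, CARD10, LTB, IL1RN, GADD45B, TNFAIP6, the other lower targets, marker examples and neighbours. The members and lists were chosen with earlier results of these data known, and the neighbour comparison and kappaB search were added after the levels had been seen. The 8 alternatives changed the minimum level, the probe set rule or the centring. The calculation was tested on simulated data with 1 probe set per gene and planted differences. That test did not cover the choice between probe sets of a gene. Python 3.11.15, numpy 2.4.6, pandas 2.3.3, statsmodels 0.14.6 and matplotlib 3.10.9 were used.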

Additional observations from a re-analysis of the deposited data

How the results depend on the processing

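The number of arrays limits the precision, and levels near background are compressed. No paired analysis was possible because each line has 1 array. Of 96 counts recomputed under the alternatives, 83 stayed within 1.5 times the reported count. Of 101 differences and medians, 92 moved by less than 0.40 and 8 by more. The other 1, the difference of NFKBIA, had been past 2-fold and turned its direction. Among the 8, the receptor median also crossed 0, from -0.45 to 0.03 without probe sets named _s_at or _x_at. Averaging all probe sets gave 588 genes higher and 503 lower, and 0 members lower. When probe sets named _s_at or _x_at were dropped, 0 members were higher and 0 lower, because TNFAIP3 has no other probe set and the remaining one of NFKBIA gave 0.24; 1 receptor and 6 targets were lower. Receptors at least 2-fold higher numbered 0 at a minimum of log2 7, with arrays centred on medians, with the lowess trend (span 0.3) removed and after centring on housekeeping genes; 4 receptors were lower with no minimum. Centring on housekeeping genes subtracted 0.19 from every difference, left 1 of the other inhibitors (TNIP1) lower, and changed the share of higher genes among those past 2-fold from 54.6% to 41.0%. NFKBIA and TNFAIP3 kept their direction. That centring used the median of 23 measured housekeeping genes. Of these, 3 were at least 2-fold higher in IGR37 (against 11.4% of all genes tested) and 0 lower (against 9.50%).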

Other observations

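The kappaB consensus was also counted in the windows of all genes that reached log2 6, a count added after the levels had been seen. Of 7094 such genes with a window, 8.01% had a match. The share was 12.5% among 646 genes at least 2-fold lower in IGR37 and 7.44% among 793 genes at least 2-fold higher. Among the NF-kB targets with a window, 2 of 7 that were lower, 2 of 4 that were higher and 2 of 4 within 2-fold had a match. These shares describe letters in the promoter and were not tested.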
